A study of Mus musculus with 4 samples.

Results

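The genes described here are 9 core cardiac transcription factors, Nkx2-5, Isl1, Hand1, Hand2, Mef2c, Gata4, Gata5, Gata6 and Myocd, out of 21938 protein-coding genes of the GENCODE M21 annotation of mouse (mm10). Every Smad1 peak within 20 kb of their gene records was taken from 5 deposited peak lists, and T-box genes were left aside by the same rule. Smad1 binding was mapped by chromatin immunoprecipitation and sequencing (ChIP-seq) in mouse embryoid bodies, the aggregates that embryonic stem cells form as they differentiate, to ask how BMP and Wnt signals meet on the genome while mesoderm chooses between blood and heart. Cells of the GFP-Bry line, an embryonic stem cell line of strain C57BL/6 with a GFP reporter for Brachyury, were differentiated to day 3, dissociated, reaggregated and given the vehicle DMSO or 10 µM IWR-1, a small molecule that blocks canonical Wnt signalling, for 24 hours. Each treatment had 1 Smad1 ChIP library and 1 input library, so no difference between treatments could be tested, and calls are described as they stand in the lists. The embryoid bodies are mixtures of cell types, so that fewer cells with a bound site and weaker binding in each cell cannot be told apart.

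Smad1 carries BMP signals to the nucleus: the receptors phosphorylate it, it joins Smad4, and the complex binds short GC-rich or CAGA-type sequences, often beside a partner factor. GATA factors are such partners in mesoderm, and BMP signals are required for the heart field to form. The 9 genes act around the moment when mesoderm becomes cardiac: Nkx2-5 encodes a homeodomain factor of heart progenitors, Isl1 a LIM-homeodomain factor of the second heart field, Hand1 and Hand2 basic helix-loop-helix factors of the ventricles and outflow tract, Mef2c a MADS-box factor of the muscle programme, Gata4, Gata5 and Gata6 zinc-finger factors of heart and endoderm, and Myocd (myocardin) a coactivator of the serum response factor.

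Peaks were found at 3 of the 9 genes, in 9 separate intervals. In the control, 4 sites of the list that both peak callers (MACS and QESEQ) shared, called common DMSO sites here, lay at Mef2c (2 sites), Gata4 (1 site) and Myocd (1 site). A further 2 intervals were called by QESEQ in DMSO alone, 1 at Gata4 and 1 at Myocd. After IWR-1, 3 intervals were called by QESEQ alone that neither DMSO list held, 2 at Mef2c and 1 at Gata4. No peak of any of the 5 lists lay within 20 kb of the 6 other genes, Nkx2-5, Isl1, Hand1, Hand2, Gata5 and Gata6. Of all protein-coding genes, 60.2% had a DMSO QESEQ peak and 35.1% a common site within 20 kb. The share with a peak of any list was not computed.

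The sample under which a list was filed did not always match what the list held. The deposited name of the common list gives DMSO, and coordinates were used to find which QESEQ and MACS lists it came from. All 10466 common sites were identical to an interval of 1 QESEQ list and overlapped 1 MACS list, and these were taken as the DMSO lists. None was identical to an interval of the other QESEQ list, which was filed under the IWR-1 ChIP sample. Of the common sites, 2701 (25.8%) overlapped the other MACS list, which was filed under the DMSO ChIP sample and is called the second MACS list. It was assigned to IWR-1 by elimination, and its deposited name also gives IWR-1. Every statement that uses it rests on that assignment. The lists held 15927 DMSO MACS peaks, 26070 DMSO QESEQ peaks, 16261 IWR-1 QESEQ peaks and 7815 peaks of the second MACS list. The MACS lists give a score per peak (lowest 50.0 in both) and the QESEQ lists give none, so scores were read only as percentiles within their own list. Read depth under each peak is unknown.

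Of the 4 common sites, 3 are printed, with 2 intervals called by QESEQ alone, as up to 300 bases of the plus strand of the mm10 assembly, to show the elements and runs at sites of each kind of call. Capitals mark Smad elements on either strand (the GC-rich words GGCGCC and, as a variant, GGAGCC, the half-site word CAGACA and the palindromic word GTCTAGAC), GATA elements on either strand (AGATAA or its variant AGATAG, and likewise TGATAA or its variant TGATAG, which all hold the letters GATA), and runs of at least 7 A or 7 T. The stretch of each interval that holds the most elements, and then the most runs, is shown. It is chr13:83599594-83599893 for Mef2c site 2, chr14:63225712-63226011 for Gata4 site 1 and chr11:65272025-65272324 for Myocd site 2. For the intervals called by QESEQ alone it is chr14:63253848-63254147 for Gata4 site 2 (IWR-1) and chr14:63283328-63283627 for Gata4 site 3 (DMSO). Every stretch printed but that of Gata4 site 1 holds all elements and runs of its interval; Gata4 site 1 has 6, of which 3 fall in the stretch.
Mef2c site 2: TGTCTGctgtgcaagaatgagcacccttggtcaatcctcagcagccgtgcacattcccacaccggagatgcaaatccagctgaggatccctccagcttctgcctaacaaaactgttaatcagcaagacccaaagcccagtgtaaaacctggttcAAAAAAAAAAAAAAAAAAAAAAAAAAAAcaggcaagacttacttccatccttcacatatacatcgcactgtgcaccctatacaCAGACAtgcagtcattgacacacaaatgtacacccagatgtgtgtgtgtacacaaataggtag
Gata4 site 1: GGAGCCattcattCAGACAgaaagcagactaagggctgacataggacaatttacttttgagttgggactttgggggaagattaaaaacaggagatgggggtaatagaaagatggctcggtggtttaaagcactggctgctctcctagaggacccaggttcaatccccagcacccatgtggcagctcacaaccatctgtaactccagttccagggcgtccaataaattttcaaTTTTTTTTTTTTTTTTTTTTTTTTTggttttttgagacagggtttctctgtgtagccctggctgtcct
Myocd site 2: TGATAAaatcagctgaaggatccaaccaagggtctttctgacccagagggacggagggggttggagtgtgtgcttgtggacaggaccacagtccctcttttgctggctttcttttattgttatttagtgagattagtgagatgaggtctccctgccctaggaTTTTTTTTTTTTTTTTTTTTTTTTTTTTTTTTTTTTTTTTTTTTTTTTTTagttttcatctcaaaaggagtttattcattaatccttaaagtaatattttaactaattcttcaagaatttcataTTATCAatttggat
Gata4 site 2: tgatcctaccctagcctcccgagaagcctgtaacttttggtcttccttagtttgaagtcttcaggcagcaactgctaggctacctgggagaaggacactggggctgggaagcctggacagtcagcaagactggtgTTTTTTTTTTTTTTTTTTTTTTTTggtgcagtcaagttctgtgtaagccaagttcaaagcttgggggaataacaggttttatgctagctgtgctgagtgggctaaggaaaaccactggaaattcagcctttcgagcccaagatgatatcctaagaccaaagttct
Gata4 site 3: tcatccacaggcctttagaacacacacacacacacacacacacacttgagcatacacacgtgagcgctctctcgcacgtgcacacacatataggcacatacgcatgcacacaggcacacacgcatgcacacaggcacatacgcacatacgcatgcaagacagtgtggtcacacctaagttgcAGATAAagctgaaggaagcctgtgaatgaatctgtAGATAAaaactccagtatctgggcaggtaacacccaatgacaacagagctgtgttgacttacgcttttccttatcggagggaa

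Mef2c (ENSMUSG00000005583.16, chr13:83504034-83667080, plus strand, 163 kb) had the most intervals of the 9 genes. Both of its common sites lay in introns of the main coding transcript Mef2c-218, which has 11 exons. RefSeq also places Mef2c starts in chr13:83523406-83523705 and chr13:83573357-83573656, between the start of Mef2c-218 and both common sites. Mef2c site 2, chr13:83599590-83600210, was 621 bp wide and lay in intron 4, 95.9 kb downstream of the transcript start. Its DMSO MACS score was 70.24, above 60.4% of that list. It held a CAGACA element on each strand, 303 and 66 bp to the left of its centre, and a run of 28 A between them, 138 bp left of the centre, with no GATA element. The second MACS list held a peak over its left part, chr13:83599563-83599868, with a score of 54.23 that exceeded 21.5% of the list. The overlap was 279 bp, or 44.9% of the common site, and included the run and both Smad elements. IWR-1 QESEQ made no call there.

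Mef2c site 3 was 512 bp wide and lay in intron 5, 127 kb from the transcript start. It scored 52.7 in DMSO MACS, close to the lowest score of that list (percentile 11.0), and neither list of the IWR-1 treatment had a call there. It was the interval richest in GATA elements, with 3 of them, and it also held a CAGACA element and a run of 12 A.

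The remaining intervals at Mef2c came from IWR-1 QESEQ alone. Mef2c site 1, chr13:83527760-83528150, lay in intron 2 of the main transcript, 23.9 kb from its start, and overlapped an exon of another Mef2c transcript. It held no Smad or GATA element, and its longest run was 5 T. Mef2c site 4, chr13:83656421-83656805, lay in intron 10, 153 kb from the start, and held a run of 37 T but no element. The second MACS list had no peak at either.

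Gata4 (ENSMUSG00000021944.15, chr14:63198922-63271692, minus strand, 72.8 kb) had 3 intervals, none of them shared between treatments. Over all common sites, 37.0% overlapped an IWR-1 QESEQ call and 25.8% the second MACS list. Of all IWR-1 QESEQ peaks, 52.9% overlapped neither DMSO list. Gata4 site 1, chr14:63225514-63226294, was the widest of the 9 intervals (781 bp) and the common site of lowest score, 51.13 in DMSO MACS, a value at percentile 4.72. It lay in intron 2 of the main coding transcript Gata4-202, 19.3 kb downstream of that transcript's start. Among starts of coding gene records the nearest was that of Neil2, 32.0 kb away, and that of Gata4 was 45.8 kb away. Adjacent GGAGCC and CAGACA elements stood 189 and 176 bp left of the centre and an AGATAG element stood 324 bp right of it. Runs of 25 T, 7 A and 24 T lay between and beside them, and 1 base separated the run of 24 T from the AGATAG word. No IWR-1 call of either caller overlapped it.

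Gata4 site 2, chr14:63253789-63254207, was called by IWR-1 QESEQ alone. It lay 8.75 kb upstream of the start of Gata4-202 but inside the gene record, which also holds transcripts that start farther upstream. A run of 24 T sat 3 bp from its centre, and it held no element. Gata4 site 3, chr14:63283297-63283659, was called by DMSO QESEQ alone, and its centre lay 11.8 kb upstream of the gene record. It held 2 AGATAA elements, 35 and 70 bp from its centre, no Smad element, and no run longer than 5 bases.

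Myocd (ENSMUSG00000020542.18, chr11:65176561-65269989, minus strand, 93.4 kb) had the interval nearest to a transcript start and the only one called in all 5 lists. Myocd site 2, chr11:65271969-65272389, was 421 bp wide, and its centre stood 2.24 kb upstream of where the main transcript, Myocd-202, begins. It scored 74.45 in DMSO MACS (percentile 67.7), the highest of the 4 common sites. IWR-1 QESEQ called chr11:65271545-65272392 there, which covered 100% of the common site, and the second MACS list called chr11:65272013-65272443, which covered 89.5% of it, scoring 59.78 (percentile 41.8). The site held a TGATAA element on each strand, 151 bp left and 135 bp right of its centre, and between them a run of 50 T whose middle was 33 bp from the centre. It was the only common site of the 4 without a Smad element. Myocd site 1, chr11:65265064-65265344, was called by DMSO QESEQ alone in intron 1, 4.74 kb from the start, and held a run of 31 T and no element.

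**Figure D1:**
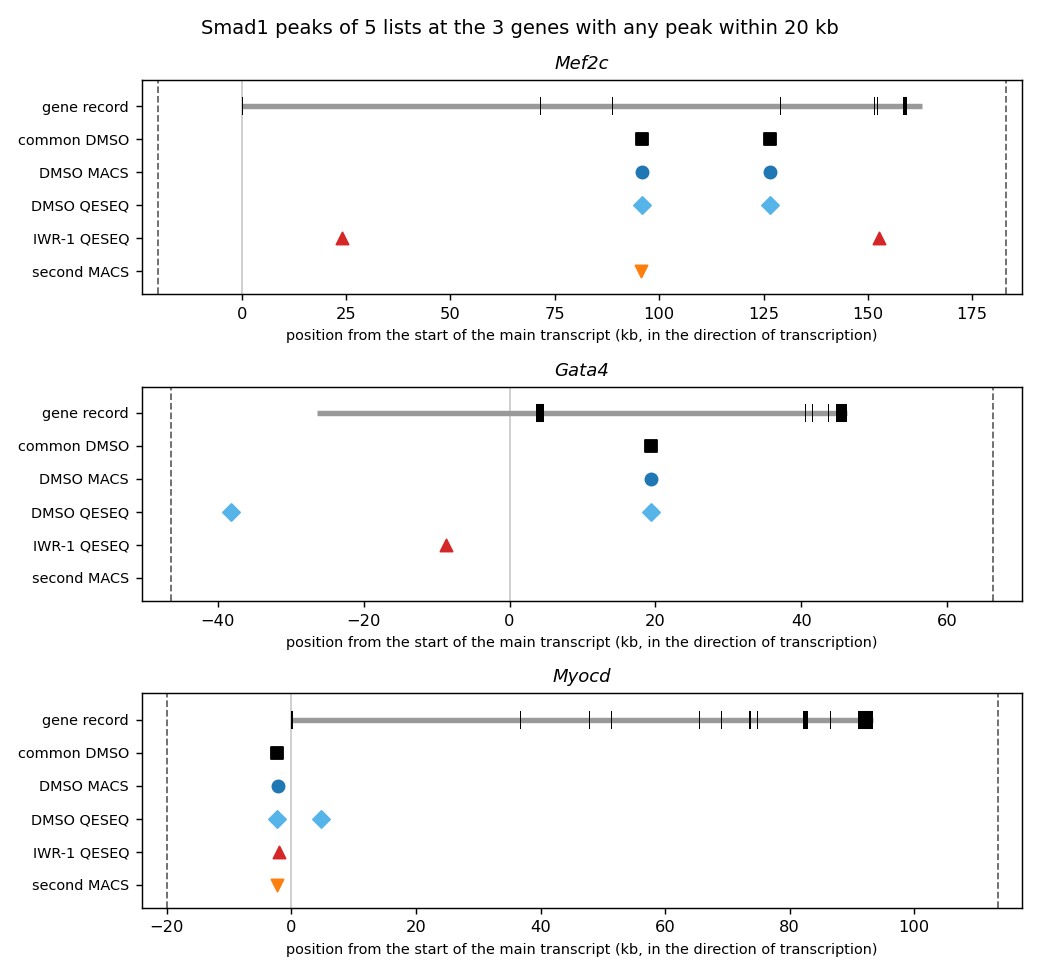
Peaks of the 5 lists (rows, coloured markers at peak centres) at Mef2c, Gata4 and Myocd against distance in kb from the start of the main coding transcript; the grey bar is the gene record, black boxes are exons of the main transcript, and dashed lines mark 20 kb on either side. The Myocd site 2.24 kb upstream of the start is the only place where all 5 lists have a marker.

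With every list the share of the 9 genes reached was numerically below that of all genes, by little for the common list and the second MACS list. The common list had a site within 20 kb of 3 of the 9 genes, against 35.1% of all protein-coding genes. DMSO MACS peaks lay at 3 of 9 (44.2% of all genes), DMSO QESEQ peaks at 3 of 9 (60.2%), IWR-1 QESEQ peaks at 3 of 9 (47.2%) and peaks of the second MACS list at 2 of 9 (26.8%). Per length of window, the 9 genes had 5.28 common sites per Mb over 0.758 Mb, and all protein-coding genes had 5.75 per Mb. For DMSO QESEQ the values were 7.92 and 14.9 peaks per Mb, and for IWR-1 QESEQ 5.28 and 9.36. For DMSO MACS they were 5.28 and 8.05, and for the second MACS list 2.64 and 3.98. With 9 genes these shares carry wide counting error, and no test of the difference was made.

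Gene length ran alongside which factors had a site. The 3 genes with a common site were the only members with records over 50 kb. Over all protein-coding genes, a common site lay within 20 kb of 23.3% (95% exact binomial interval 22.4 to 24.3) of 7774 genes under 10 kb, 34.9% (33.9 to 35.9) of 9157 genes of 10 to 50 kb and 53.6% (52.2 to 55.0) of 5007 genes over 50 kb. Nkx2-5, Hand1, Hand2 and Gata5 (0 of 4) belonged to the first class and Isl1 and Gata6 (0 of 2) to the second. The length classes were chosen after the positions were seen, the intervals cover counting error only, and the part of gene length in the members' counts was not tested.

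**Figure D2:**
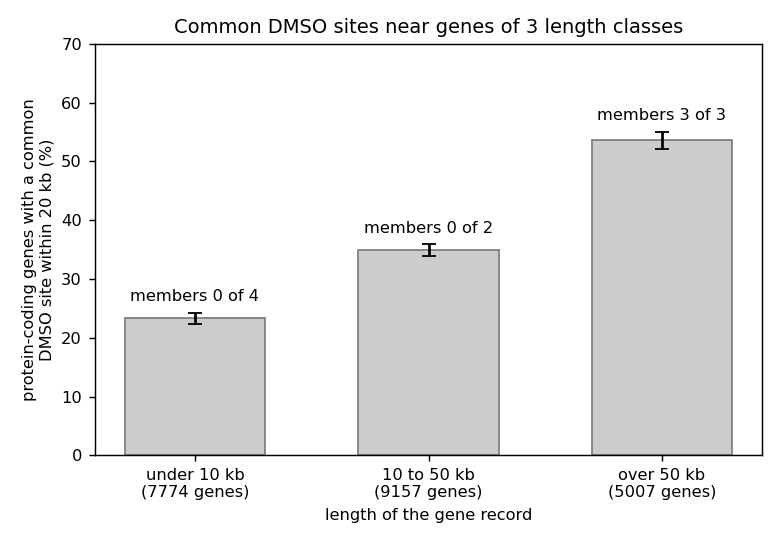
Share of protein-coding genes with a common DMSO site within 20 kb (vertical axis, percent; error bars are 95% exact binomial intervals) in 3 classes of gene record length, with the members' counts printed above each bar. The share rises from 23.3% to 53.6%, and the 3 members with a site all fall in the longest class.

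The 6 genes without a peak differed in how far away Smad1 calls began. Hand1 (ENSMUSG00000037335.13, chr11:57828705-57832818, minus strand) came nearest to the 20 kb limit, with a DMSO QESEQ peak 23.3 kb past its end whose nearest coding gene start was that of Sap30l. Hand2 (ENSMUSG00000038193.4, chr8:57320983-57324633, plus strand) had QESEQ peaks of both treatments that began 27.7 kb (DMSO) and 28.0 kb (IWR-1) past its end, 31.8 and 32.0 kb downstream of its start, and Hand2 was the nearest coding gene start to both. Gata6 (ENSMUSG00000005836.10, chr18:11052064-11085635, plus strand) had a DMSO QESEQ peak 28.0 kb upstream. Nkx2-5 (ENSMUSG00000015579.5, chr17:26838664-26845009, minus strand) had an IWR-1 QESEQ peak at 35.9 kb and a DMSO QESEQ peak at 47.2 kb, both nearest to the start of Bnip1. On the inner side of the limit, the interval farthest from its gene record was Gata4 site 3, at 11.6 kb. All 4 of the nearest DMSO calls at Hand1, Hand2, Gata6 and Nkx2-5 were QESEQ calls that MACS did not share.

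Gata5 (ENSMUSG00000015627.5, chr2:180325133-180334699, minus strand) and Isl1 (ENSMUSG00000042258.13, chr13:116298281-116309689, minus strand) had no peak of any list within 50 kb. The nearest one to Gata5 was a common site 69.1 kb away, 1.62 kb upstream of the start of Rps21, a ribosomal protein gene, and it was called in all 5 lists. For Isl1 the nearest peaks were from the MACS lists, 105 kb downstream, in DMSO (percentile 98.1 of its list) and in the second MACS list (percentile 98.8), with no QESEQ call in either treatment. The nearest common sites to the 6 genes lay at 69.1 kb (Gata5), 129 kb (Hand2), 153 kb (Hand1), 299 kb (Nkx2-5), 348 kb (Isl1) and 706 kb (Gata6). The median over all 9 genes was 129 kb, and over all protein-coding genes 45.5 kb.

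**Figure D3:**
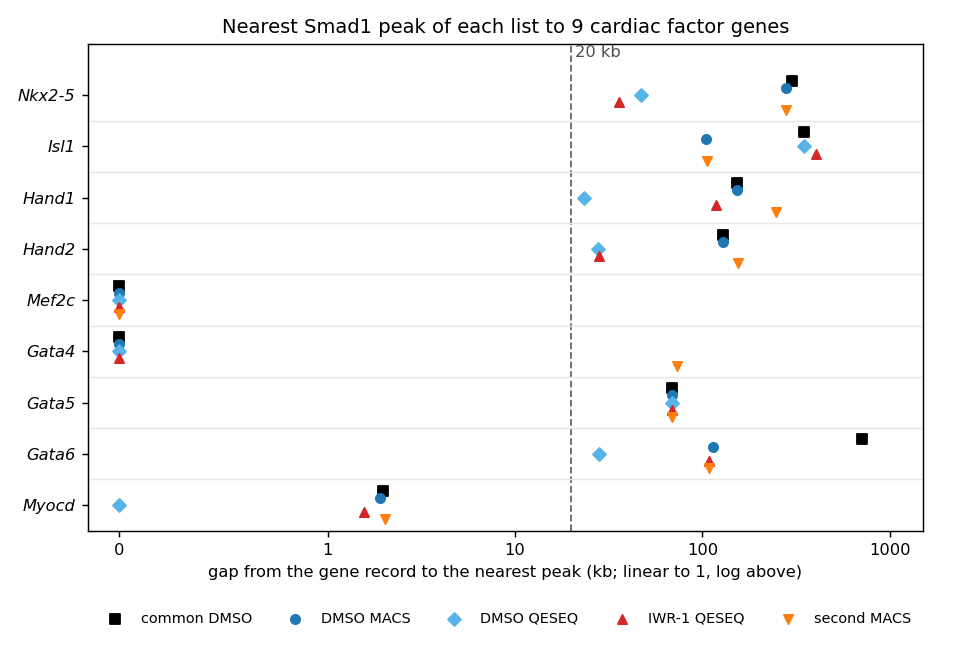
Gap in kb (horizontal axis, linear to 1 kb and logarithmic above) from each of the 9 gene records to the nearest peak of each of the 5 lists (markers); 0 means that the peak overlaps the record, and the dashed line marks 20 kb. Mef2c, Gata4 and Myocd have markers left of the line, and the other 6 genes have none, with Hand1 closest at 23.3 kb.

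Beyond 20 kb, calls of both treatments also fell together at genes that had a nearer site. Downstream of Mef2c, QESEQ peaks of DMSO and IWR-1 began 34.1 and 33.9 kb past the gene record and again 65.6 and 65.7 kb past it. Upstream of Myocd, a second common site lay at chr11:65344978-65345361, 75.2 kb from the record's start, with a DMSO MACS score of 56.91 (percentile 26.3), an IWR-1 QESEQ call and a call of the second MACS list with a score of 62.67 (percentile 49.8). Calls of 1 treatment alone included IWR-1 QESEQ peaks 59.2 kb from Mef2c, 27.6 kb from Gata4 and 86.3 kb from Myocd. They also included DMSO QESEQ peaks 32.7 kb from Gata4 and 56.3 kb from Myocd. Within 50 kb, DMSO QESEQ reached 7 of the 9 genes with 13 peaks, against 76.7% of all protein-coding genes. IWR-1 QESEQ reached 5 genes with 8 peaks (64.7% of all genes), and the common list reached 3 genes with 4 sites (52.1%).

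RefSeq promoter windows (GRCm38.p6, 300 bases around a start) were matched for 5 of the 9 genes, with 7 windows for Nkx2-5, Isl1, Hand2, Gata5 and Mef2c (3 windows), and 0 of the 7 overlapped a peak of any list, as against 2.27% of all such windows. A Smad element was present in 6 of the 7 windows, against 51.7% of 32851 windows in all, and a GATA element in 2 of the 7 (Isl1 and Hand2), against 29.8%. Both of these held AGATAA and TGATAA words and a GGCGCC word.

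None of the common sites at the 9 genes scored above the upper quartile of all common sites. The median over all common sites was 66.6, with quartiles of 57.6 and 80.7. Gata4 site 1 (51.13) and Mef2c site 3 (52.7) scored below the lower quartile, and Mef2c site 2 (70.24) and Myocd site 2 (74.45) between the median and the upper quartile.

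**Figure D4:**
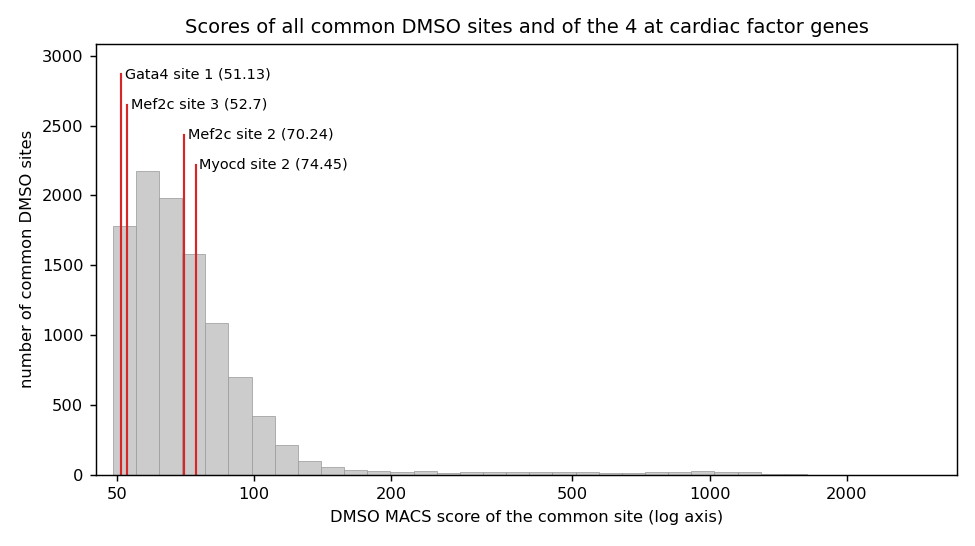
Number of common DMSO sites (vertical axis) by DMSO MACS score (horizontal axis, logarithmic) over all 10466 sites, with lines at the scores of the 4 sites at cardiac factor genes. The 4 lines stand between 51.13 and 74.45, all below the upper quartile of 80.7.

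After IWR-1, 1 of the 4 common sites (Myocd site 2) had a QESEQ call, against 37.0% of all 10466 common sites. The second MACS list called 2 of the 4 (Myocd site 2 and Mef2c site 2), against 25.8%. Both lists called 1 of 4, against 18.4%. The 2 sites without a call in either list were those with the 2 lowest scores, Gata4 site 1 and Mef2c site 3. Over all common sites the share with an IWR-1 QESEQ call was 27.5% (95% exact binomial interval 25.8 to 29.2) for scores up to the lower quartile, 36.6% (34.7 to 38.4) between the median and the upper quartile and 51.6% (49.7 to 53.5) above it. The second MACS list called 13.7%, 23.7% and 48.0% of these classes. A missing call means that the interval did not pass the caller's threshold in that library, and the part of the score in the missing calls at Gata4 and Mef2c was not tested. With 1 library per treatment, a call lost or gained cannot be told apart from variation between libraries.

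IWR-1 QESEQ calls without a counterpart in the control were the larger part at these genes and also over the whole list. With 4 peaks at these genes, no test of the difference was made. Of the 4 IWR-1 QESEQ peaks at these genes, 3 (Mef2c sites 1 and 4 and Gata4 site 2) overlapped neither DMSO list, against 52.9% of all 16261 IWR-1 QESEQ peaks. None of the 3 was called in the second MACS list, and over all such IWR-1 QESEQ peaks 12.0% were. In DMSO, 4 of the 6 QESEQ peaks belonged to the common list, against 40.1% of all 26070.

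Runs of A or T were the feature that these sites shared most widely, and they shared it with common sites in general. A run of at least 7 was present in 4 of the 4 common sites at the genes, in 90.3% (95% exact binomial interval 89.7 to 90.9) of all common sites and in 29.8% of 20932 windows of matching width 2 kb to either side. A run of at least 15 was present in 3 of 4, in 82.3% of all common sites and in 3.73% of the windows. The longest runs were 12 A (Mef2c site 3), 25 T (Gata4 site 1), 28 A (Mef2c site 2) and 50 T (Myocd site 2), against a median of 25 over all common sites with quartiles of 19 and 30. Among all 9 intervals, 7 held such a run. Of the intervals called by QESEQ alone, 2 of the 3 from IWR-1 held one, against 55.6% of IWR-1 QESEQ peaks outside both DMSO lists, and 1 of the 2 from DMSO did, against 72.7% of DMSO QESEQ peaks outside the common list. The part of the runs in these calls was not tested.

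Over all common sites, Smad elements as a set and GATA elements as a set were less frequent than in windows beside them. A Smad element was present in 3 of the 4 common sites at the genes, in 44.2% of all common sites and in 47.0% of the windows. The word behind all 3 was CAGACA (32.0% of all common sites, 35.0% of windows); GGAGCC was present in 1 (17.4% and 18.7%), GGCGCC in 0 (2.66% and 1.96%) and the palindrome GTCTAGAC in 0 (0.411% and 0.244%). A GATA element was present in 3 of 4, in 51.4% of all common sites and in 58.4% of windows. TGATAA was the most frequent of the 4 words at the genes, in 2 sites, against 16.9% and 22.5%. Both kinds stood together in 2 of the 4 (Mef2c site 3 and Gata4 site 1), against 22.7% of common sites and 27.1% of windows. Of the 5 intervals called by QESEQ alone, none held a Smad element and 1 (Gata4 site 3) held a GATA element. The shares were 50.7% and 59.6% over IWR-1 QESEQ peaks outside both DMSO lists, and 49.5% and 56.5% over DMSO QESEQ peaks outside the common list. No common site at the genes held a TCF/LEF word (CTTTGAT or CTTTGTT; 18.3% of common sites) or the Nkx2 word TTAAGTG (5.29%).

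The shares with an element were higher in wider sites. Mef2c site 2 and Gata4 site 1 were at least 600 bp wide, where 66.3% of common sites held a Smad element and 66.1% a GATA element, and the other 2 sites were of 400 to under 600 bp, where the shares were 47.2% and 54.8%. A match to 6 letters is a description of the sequence and was not read as a bound site, and the part of width in the members' counts was not tested.

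**Figure D5:**
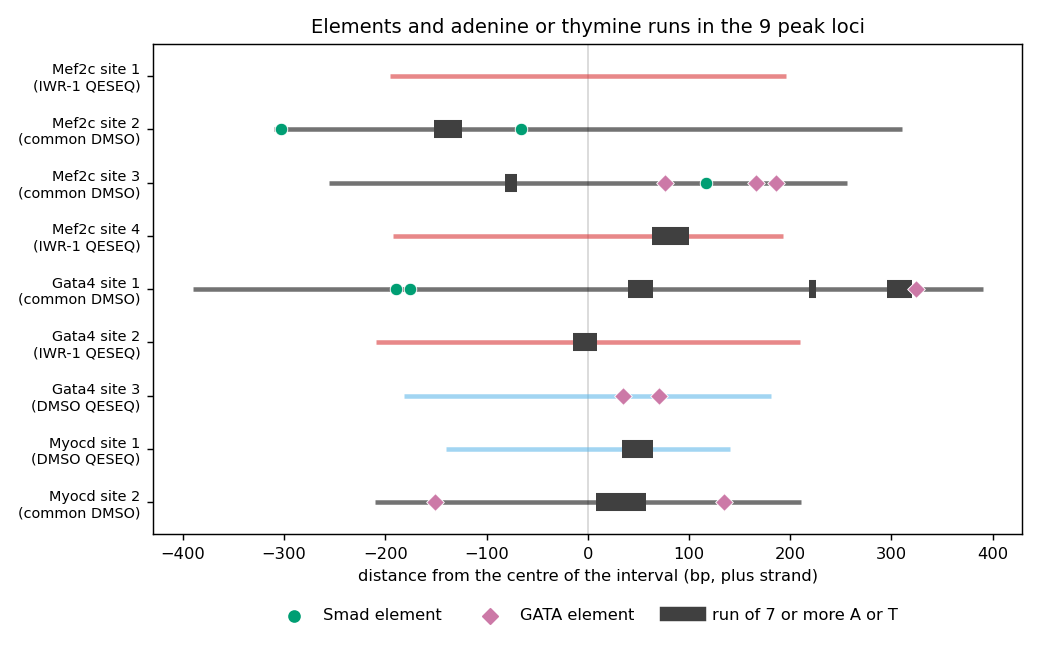
Smad elements (green circles), GATA elements (pink diamonds) and runs of at least 7 A or T (dark blocks, drawn to scale) along the 9 intervals against distance in bp from the interval's centre on the plus strand; line colour gives the list (black common DMSO, blue DMSO QESEQ, red IWR-1 QESEQ). Runs occur in 7 of the 9 intervals, Smad elements in 3, and GATA elements in 4.

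Stretches of identical sequence were found in 3 of the intervals. Over the 36 pairs of intervals, the longest stretch found in both without a run of 5 A or T was 26 bases, and 2 pairs reached it. Gata4 site 1 and Myocd site 1 shared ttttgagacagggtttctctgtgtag, separated by 4 bases from the run of 25 T in the first and by 5 bases from the run of 31 T in the second. Mef2c site 3 and Gata4 site 1 shared a stretch of 26 bases on opposite strands that was not identical to the first. How far these stretches overlap is not reported here. Mef2c site 3 and Myocd site 1 shared 22 bases, and no other pair shared more than 11. The first stretch was present in 3.19% (2.86 to 3.55) of all common sites and in 0.377% (0.299 to 0.470) of the windows 2 kb away. These 3 intervals were also those with the largest share of bases marked as repeats in the reference, at 70.8% for Myocd site 1, 50.4% for Gata4 site 1 and 37.5% for Mef2c site 3, and 7.67% to 31.7% in the other 6. The stretch was looked for after the sequences had been seen, and the part of repeated sequence in these calls was not tested.

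Other regulators of heart development were set beside the 9 genes by counts. Of 25 such genes, 10 (40.0%) had a common site within 20 kb, with 15 sites in all, or 5.89 per Mb. They were Mef2b and Mef2d, paralogues of Mef2c; Mrtfa and Mrtfb, which like myocardin act through the serum response factor; Smarcd3, a subunit of chromatin remodelling complexes; Irx4, Foxc1, Foxh1 and Nr2f2, which are transcription factors; and Smyd1, a muscle methyltransferase. At Mef2b, Smyd1 and Mrtfa the nearest coding gene start was that of another gene (Nr2c2ap, Krcc1 and Sgsm3). The same held for every Foxh1 site (Cyhr1, Ppp1r16a or Gpt). At the other genes named it was the gene's own start. An IWR-1 QESEQ call was present at 8 of the 15 sites, against 37.0% of all common sites. The second MACS list called 5 (25.8%), and 12 held a run of at least 7 A or T (90.3%). One site at Mrtfb had a DMSO MACS score of 1072 (percentile 99.6) and overlapped a tRNA gene. The highest score at the 9 genes was 74.45 (percentile 67.7), and none of the 9 intervals described above overlapped a tRNA gene. Among 6 cardiac T-box genes 2 had a common site (4.87 per Mb), and among 10 transcription factors of blood formation 3 did (4.44 per Mb). Over all protein-coding genes the share was 35.1%, with 5.75 common sites per Mb. No test between these lists was made.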

How the data were processed

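Smad1 ChIP and input libraries (1 each for DMSO and IWR-1) were deposited as peak lists. Per the submitters' processing notes, the authors used CASAVA 1.8, Bowtie2 2.1.0 and MACS 1.0.1. Reads were aligned to mm10, PCR duplicates were removed, peaks were called with MACS and QESEQ, and common peaks were kept. The score deposited by the authors in the 2 MACS lists is the caller's own, with a lowest value of 50.0. No counts were used, so depth and precision per peak are unknown.

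The 9 genes and all other lists were chosen with earlier results of these data known. Peaks within 20 kb of GENCODE M21 gene records were taken, with file positions read as 0-based starts and printed 1-based. An overlap was 1 bp or more. Distances of peaks from a start run from peak centres. Other distances between peaks and genes are gaps from the gene record to the nearest edge of the peak. The main transcript was the first-numbered coding one with a principal annotation. Sequence was read from NCBI GRCm38, the assembly behind mm10. All 9 genes and all their peaks are named, and the other cardiac regulators are named where a common site was present. A gene of that list and the sequence of 1 site are not reported here. Elements and runs were searched in whole intervals. Searches were tested on simulated data, in which 1000 of 1000 planted items were recovered at each step. Intervals of shares are exact binomial at 95% and cover counting error only. No tests between treatments were possible. Software was Python 3.11.15 with pysam 0.24.0 for sequence, scipy 1.17.1 with numpy 2.4.6 for intervals, and matplotlib 3.10.9 for figures.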

Additional observations from a re-analysis of the deposited data

How the results depend on the processing

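Of 41 alternatives tried over 10 counts, 31 gave a value within 1.5 times that reported and 10 did not. Keeping only sites with a DMSO MACS score at or above the list's median left 2 common sites in place of 4. A window of 50 kb raised the DMSO QESEQ peaks at the genes from 6 to 13 and the IWR-1 QESEQ peaks from 4 to 8. The common sites with an IWR-1 QESEQ call, 1 of 4 as reported, numbered 0 when 50% of each interval had to overlap, since the call at Myocd site 2 is wider than the site, and 2 with the second MACS list or with either list. Smad elements, in 3 of 4 sites, were in 1 with the GC-rich words alone and in 1 within the central 200 bp. GATA elements, in 3 of 4, were in 1 with AGATAA alone and in 1 within the central 200 bp. The 3 genes with a common site were 3 at 10 and 50 kb, with the main transcript as gene model and with either DMSO list, 4 at 100 kb (Gata5 added), and 2 (Mef2c and Myocd) at the higher score limit. Absent read counts, absent replicates and lists filed under other samples limit what can be said of each call. No paired analysis was possible because each treatment had 1 ChIP library.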
